A study of Homo sapiens with 8 samples.

Results

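The carcinoembryonic antigen-related cell adhesion molecule (CEACAM) family was followed in intestinal and colorectal carcinoma (CRC) cell lines through 5 genes chosen by their symbols, CEACAM1, CEACAM5, CEACAM6, CEACAM7 and CEACAM19, out of the 54261 genes of the count table. CEACAM proteins are immunoglobulin-like cell surface glycoproteins that bind one another between cells. CEACAM1 spans the membrane and carries inhibitory tyrosine motifs in its long cytoplasmic tail, which recruit the phosphatases SHP-1 and SHP-2. CEACAM5 (the carcinoembryonic antigen measured in serum during follow-up of CRC), CEACAM6 and CEACAM7 are held in the outer leaflet by a glycosylphosphatidylinositol (GPI) anchor and are made mainly by differentiated colonic epithelium. CEACAM19 is a divergent transmembrane member whose function is little known.

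Total RNA was sequenced from 5 untreated lines at passage 5, with 1 library per line. NCM460 and HIEC6, labelled as normal human intestinal epithelial lines, formed the normal group (n = 2), and the tumor lines DLD1, HCT116 and HCT8 formed the CRC group (n = 3). The same 3 CRC lines were sequenced again under hypoxia (n = 3), at an oxygen level and for a time that the labels do not give. Replicates of a group were therefore different lines, no genotype or transgene was introduced, and every group was grown in the same serum-containing medium.

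Total counts lay between 45519306 and 57374239 per library, and the floor used for a count of 0, 3 counts, stood for 0.0523 to 0.0659 CPM (counts divided by the library total, times 1000000). Intervals and floors cover counting error only. The libraries of both normal lines stood apart from their labels. Across the 54261 genes, log2(CPM + 1) of the library labelled NCM460 correlated at 0.994 with that of HCT116, against 0.924 with HIEC6 and 0.980 between the untreated and hypoxia libraries of HCT116 itself. HIEC6 had 243272 counts of KRT8 but 10 of EPCAM, 3 of CDX2 and 69375 of VIM, so that its epithelial label was not borne out by EPCAM or CDX2. Leukocyte markers summed to between 0.247 and 3.34 CPM in each library. All 16 listed hypoxia response genes were higher under hypoxia in each of the 3 CRC lines, with median log2 ratios of 1.62 in DLD1, 3.07 in HCT116 and 2.65 in HCT8. Outside HCT116, BNIP3 rested on few counts, with 0 untreated and 5 under hypoxia in DLD1 and 0 and 1 in HCT8.

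The 5 genes lie on chromosome 19. In GENCODE release 44 on GRCh37, CEACAM7 occupies chr19:42177231-42210895 on the minus strand, CEACAM5 chr19:42212504-42234353 on the plus strand and CEACAM6 chr19:42254885-42276116 on the plus strand, with gaps of 1.61 kb and 20.5 kb between them. CEACAM1 follows at chr19:43011456-43065386 on the minus strand, 735 kb beyond CEACAM6, and CEACAM19 at chr19:45165545-45187631 on the plus strand. In the 250 bases before the annotated start (RefSeq, GRCh38.p14, which had entries for 4 of the 5 members and none for CEACAM19), the promoters were alike at between 66.2% (CEACAM1 and CEACAM5) and 80.5% (CEACAM5 and CEACAM7) of aligned columns. The stretch that carries the 6 letters CACGTG in CEACAM5 is given here for the 4 promoters because it separates the members by sequence. These letters are a form of E-box to which upstream stimulatory factors bind. Capitals mark the aligned 6 bases, each sequence is read 5′ to 3′ on the gene's own strand.
CEACAM1, chr19:42528507-42528532, minus strand: cgccccagcaCACATGatcagacaaa
CEACAM5, chr19:41708570-41708595, plus strand: acccatgaccCACGTGatgctgagaa
CEACAM6, chr19:41755475-41755500, plus strand: acccatgaccCACGTGaccctgggaa
CEACAM7, chr19:41688299-41688324, minus strand: acccctggacCATGTGatcttggaaa

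CACGTG began 46 bases before the start of CEACAM5 and 45 bases before that of CEACAM6. In CEACAM1 and CEACAM7, 1 of the 6 aligned bases differed. The palindrome CACGTG was found in 2228 of 35116 promoters of this length (6.34%). It contains the hypoxia response core ACGTG on either strand, a core which, together with the alternative GCGTG, was found in 43.2% of promoters. The match describes the letters of this window and nothing about binding.

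All 5 members were at low levels. CEACAM19 and CEACAM1 led in counts, with 930 and 470 over the 8 libraries, followed by CEACAM6 with 142, CEACAM5 with 46 and CEACAM7 with 1. Of the 34727 genes with any count, 37.8% had a higher mean CPM than CEACAM19, 42.2% than CEACAM1 and 61.8% than CEACAM5. On the per-length scale (reads scaled to union exon length and library total, RPKM), the mean levels in the 3 untreated CRC lines were 0.444 for CEACAM19, 0.196 for CEACAM1, 0.151 for CEACAM6 and 0.0354 for CEACAM5. With the longest transcript as length they were 0.700, 0.310, 0.172 and 0.0403 RPKM in the same order. The 5 members together reached 5.14 CPM (NCM460) and 0.300 CPM (HIEC6) in the normal lines, 2.93 (DLD1), 4.75 (HCT116) and 4.24 (HCT8) in the untreated CRC lines, and 2.56, 6.55 and 4.13 in DLD1, HCT116 and HCT8 under hypoxia. The make-up differed: CEACAM19 gave 89.7% of the members' counts in NCM460 and 21.3% in HCT8 under hypoxia, where CEACAM1 gave 53.2%.

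**Figure D1:**
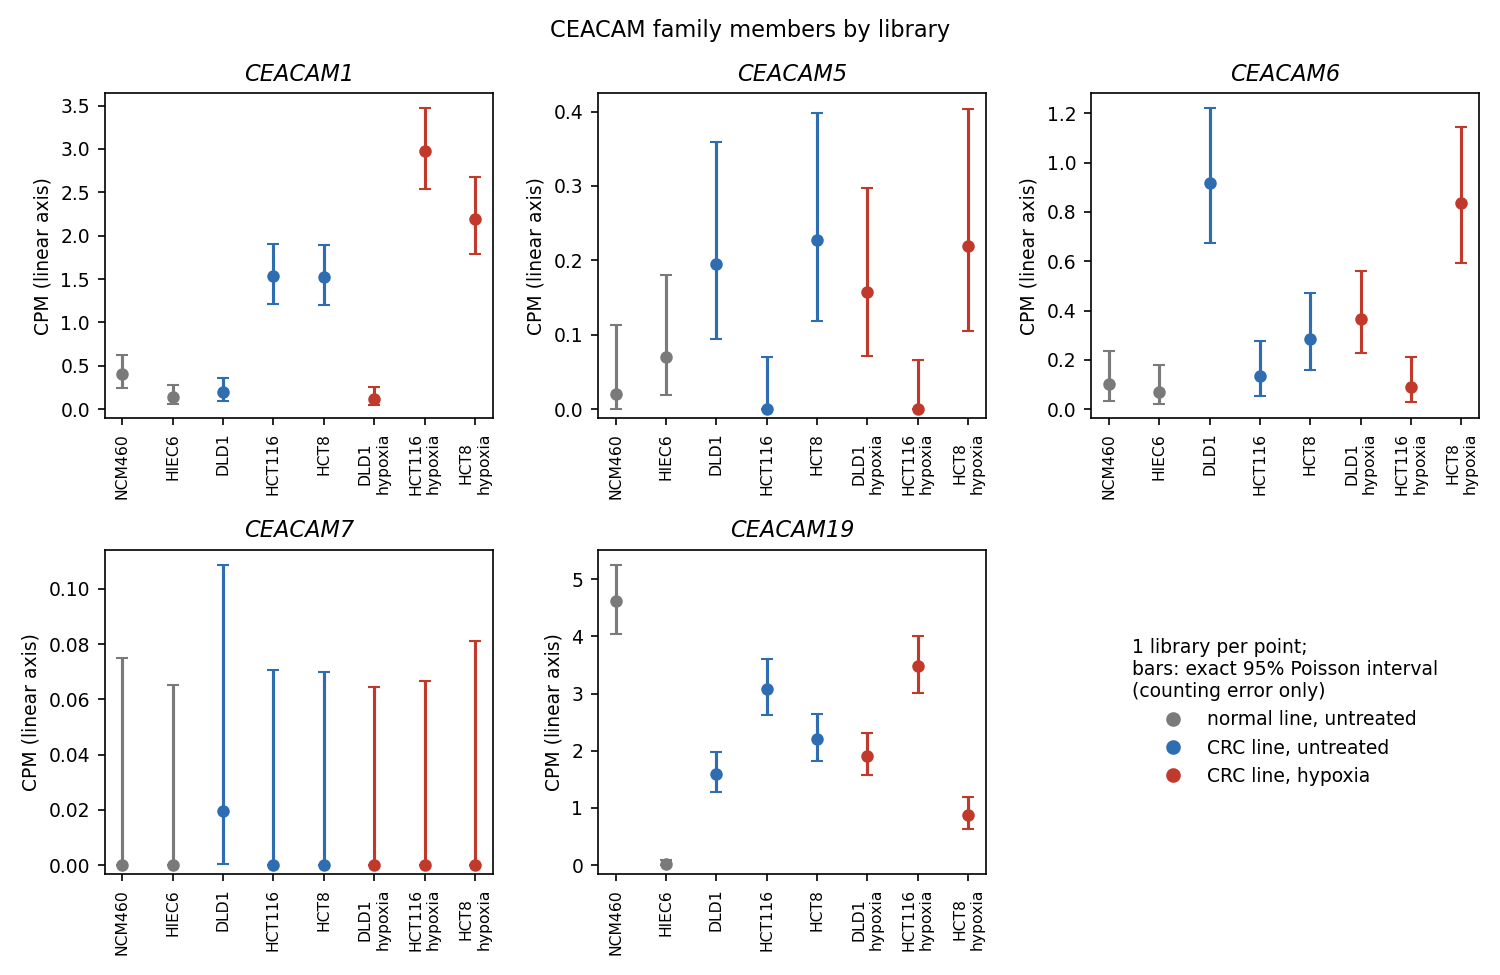
Level in CPM (linear axes, 1 panel per gene) of the 5 CEACAM members in the 8 libraries, with exact 95% Poisson intervals that cover counting error only. CEACAM1 was at 1.52 CPM or above in the 4 HCT116 and HCT8 libraries and at 0.407 CPM or below in the other 4, CEACAM5 was at 0 in both HCT116 libraries, and CEACAM19 was at 1 count in HIEC6.

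CEACAM1, the inhibitory receptor of the family, was high in HCT116 and HCT8 and low elsewhere. Untreated, the normal lines had 20 counts (NCM460) and 8 (HIEC6), and the CRC lines had 10 (DLD1), 80 (HCT116) and 80 (HCT8). Under hypoxia they were 7 in DLD1, 165 in HCT116 and 100 in HCT8. In CPM the untreated libraries stood at 0.407, 0.141, 0.195, 1.53 and 1.52 respectively. HCT116 and HCT8 were level (ratio 1.01, 95% counting interval 0.730 to 1.39), and HCT8 was 3.74-fold above NCM460 (2.27 to 6.44). NCM460, DLD1 and HIEC6 could not be ordered at this depth between neighbours, since the ratio of NCM460 to DLD1 was 2.08 (0.930 to 4.98) and that of DLD1 to HIEC6 was 1.38 (0.492 to 4.04). The ends of this trio differed, with NCM460 2.88-fold above HIEC6 (1.22 to 7.57). Although the NCM460 and HCT116 libraries were alike across genes, CEACAM1 was 3.77-fold higher in HCT116 (2.29 to 6.49).

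CEACAM5 was detected in DLD1 and HCT8 and not in HCT116. The normal lines had 1 count (NCM460) and 4 (HIEC6), and the CRC lines had 10 (DLD1), 0 (HCT116) and 12 (HCT8), and under hypoxia 9 in DLD1, 0 in HCT116 and 10 in HCT8. In HCT116 a count of 0 allowed a level of up to 0.0574 CPM untreated and 0.0542 CPM under hypoxia. With 0.195 CPM in DLD1 and 0.228 CPM in HCT8, the carcinoembryonic antigen transcript was near the floor even in the libraries that had it.

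CEACAM6, its neighbour with the same kind of anchor, was highest in untreated DLD1. Counts were 5 and 4 in the normal lines NCM460 and HIEC6, then 47 in DLD1, 7 in HCT116 and 15 in HCT8, and 21, 5 and 38 in DLD1, HCT116 and HCT8 under hypoxia. DLD1 at 0.918 CPM was 3.22-fold above HCT8 (1.77 to 6.20). The steps from HCT8 down to HCT116, NCM460 and HIEC6 all lay within counting error, with ratios of 2.13 (0.816 to 6.16), 1.32 (0.360 to 5.27) and 1.44 (0.310 to 7.26).

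CEACAM7, which is known from the surface of differentiated colonic epithelium, had 1 count in untreated DLD1 and 0 in each of the other 7 libraries. Those 7 zeros allowed levels of up to 0.0523 to 0.0659 CPM. It did not pass the filter on low counts (10 counts in 2 libraries) and was not tested.

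CEACAM19 was lowest in HIEC6, with 1 count, and highest in the library labelled NCM460, with 227 counts. Between them lay the CRC lines, with 82 counts (DLD1), 161 (HCT116) and 116 (HCT8). Under hypoxia it had 110 in DLD1, 193 in HCT116 and 40 in HCT8. By column totals, each untreated library could be told from its neighbour by counting error. NCM460 at 4.62 CPM was 1.50-fold above HCT116 (1.22 to 1.84), HCT116 was 1.40-fold above HCT8 (1.09 to 1.79), HCT8 was 1.38-fold above DLD1 (1.03 to 1.85) and DLD1 was 90.8-fold above HIEC6 (15.85 to 3630, against 1 count). The normal lines therefore stood at the top and the bottom of this order. With library totals scaled by TMM, the normalization of the fits, the order was the same. From NCM460 down to HIEC6 the levels were then 4.61, 3.05, 1.905, 1.527 and 0.02 CPM. No interval was computed on that scale, where HCT8 and DLD1 lay closer than by column totals.

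Other annotated genes overlap 4 of these members. CEACAM1 lies within LIPE-AS1, an antisense long noncoding gene, and shares 185 exonic bases with it (3.35% of its union exons), and the strand used in counting is not given in the sources used here. LIPE-AS1 had 207 counts (NCM460) and 6 (HIEC6) in the normal lines, 11 (DLD1), 161 (HCT116) and 50 (HCT8) in the CRC lines, and 6, 166 and 114 in DLD1, HCT116 and HCT8 under hypoxia. Both genes were thus low in HIEC6 and DLD1 and high in HCT116, but NCM460 was high for LIPE-AS1 and low for CEACAM1. CEACAM19 shares 121 exonic bases (2.34%) with PVR, the poliovirus receptor, on the same strand. HIEC6 had 5868 counts of PVR and 1 of CEACAM19. CEACAM5 and CEACAM6 are both overlapped on the same strand by the protein-coding gene ENSG00000267881, over 21778 and 5761 bases, and CEACAM6 on the opposite strand by the long noncoding gene ENSG00000268833. Neither of these genes was matched to a row of the count table. The part of reads from overlapping genes in the members' counts was not tested. Among sequence windows of 100 bases, between 0% (CEACAM7) and 1.79% (CEACAM6) of a member's windows also occurred in another gene's transcripts, and 0 windows were shared between members. At 50 bases the share reached 7.22% for CEACAM6. How reads with several matches were counted is not given in the sources used here.

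The 3 CRC lines were compared with one another over their 6 libraries, with treatment in the model, since the untreated and hypoxia libraries of a line are its only repeats. For DLD1 against HCT116, edgeR's quasi-likelihood test called 6741 of 21045 genes (32.0%) at a Benjamini-Hochberg adjusted p under 0.05. For HCT8 against HCT116 it called 5677 (27.0%), and for HCT8 against DLD1 3295 (15.7%). Of the 5 members, 4 passed the filter, and CEACAM1 was called in 2 of the 3 contrasts while the other 3 were called in none. Of the members, 1 of 4 tested was therefore called in each contrast with DLD1 and 0 of 4 in the contrast of HCT8 with HCT116, beside those shares of all genes.

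CEACAM1 was lower in DLD1 than in HCT116 by a log2 fold change of -3.97 (standard error 0.70, adjusted p = 0.00364, edgeR) and higher in HCT8 than in DLD1 by 3.33 (standard error 0.68, adjusted p = 0.0147, edgeR). Over both libraries of a line, DLD1 had 17 counts and HCT116 245, a ratio of 0.0688 (0.0394 to 0.112), and HCT8 had 180, 11.7-fold over DLD1 (7.11 to 20.6). The call against HCT116 was lost without the hypoxia library of DLD1 (adjusted p = 0.0607, edgeR). The call of HCT8 over DLD1 was lost without untreated HCT8 (adjusted p = 0.0939, edgeR), without hypoxia HCT8 (0.0928) and without hypoxia DLD1 (0.181). Between HCT8 and HCT116 the log2 fold change was -0.65 (standard error 0.58, adjusted p = 0.449, edgeR), which was within the spread.

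CEACAM5 and CEACAM6 ran the other way, with more counts in DLD1 and HCT8 than in HCT116, but neither passed the threshold over all genes. CEACAM5 had 19 counts in the 2 DLD1 libraries and 22 in the 2 HCT8 libraries against 0 in HCT116. Set against a floor of 3 counts over both HCT116 libraries, the observed level was 6.28-fold higher in DLD1 and 8.04-fold higher in HCT8. With counting error on both sides, the exact 95% lower limits of the ratios to HCT116 were 4.63 and 6.01. The adjusted p was 0.0528 for DLD1 and 0.0527 for HCT8 (edgeR), and 0.0407 and 0.0404 without the treatment term. CEACAM6 had 68 counts in DLD1, 53 in HCT8 and 12 in HCT116, with log2 fold changes over HCT116 of 2.29 (standard error 0.99, adjusted p = 0.114) and 1.94 (adjusted p = 0.187, edgeR). These values were 1.07 without untreated DLD1 and 0.58 without hypoxia HCT8. HCT8 and DLD1 differed by 0.20 for CEACAM5 and -0.35 for CEACAM6, with standard errors of 1.12 and 0.95 on the log2 scale.

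CEACAM19 had 354 counts in the HCT116 libraries, 192 in DLD1 and 156 in HCT8. The log2 fold changes against HCT116 were -1.14 in DLD1 (standard error 0.57, adjusted p = 0.162) and -1.52 in HCT8 (standard error 0.59, adjusted p = 0.0916, edgeR). The latter passed with no filter on low counts (adjusted p = 0.0416) and without untreated HCT116 (0.0418).

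**Figure D2:**
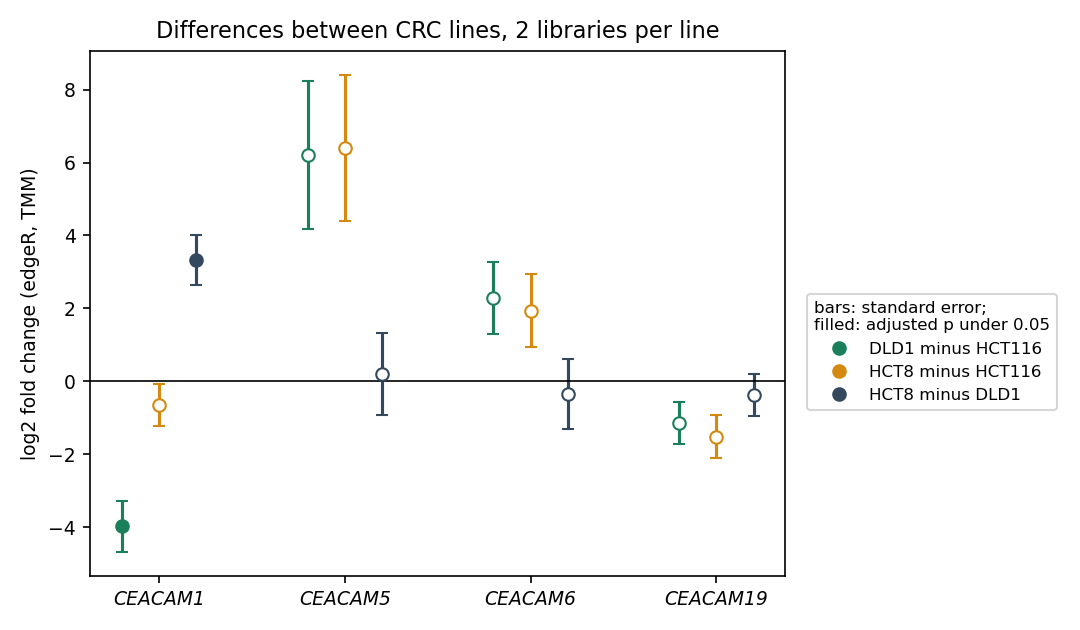
Fitted log2 fold changes (vertical axis, edgeR with TMM) of the 4 tested members for the 3 pairs of CRC lines. Bars are approximate standard errors derived from the F statistic, and filled points mark an adjusted p under 0.05. The 2 filled points are CEACAM1 at -3.97 (DLD1 minus HCT116) and 3.33 (HCT8 minus DLD1). The CEACAM5 points above 6 are set against 0 counts in HCT116, so that their height and bars depend on the prior count of the fit.

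Genes with roles around the members were counted in the same line contrasts. Of all genes, 32.0% were called in either direction for DLD1 against HCT116 and 27.0% for HCT8 against HCT116. Of the 12 intestinal epithelial markers, 9 were called higher in DLD1 and 8 in HCT8 than in HCT116 and 0 lower, with median log2 fold changes of 3.39 and 3.44 against 0.02 and 0.04 over all genes. Of the 9 tested intestinal transcription factors, 5 were higher and 1 lower in DLD1 and 7 were higher and 1 lower in HCT8, with medians of 2.28 and 2.62. CDX2, a homeobox factor of intestinal identity, was higher by 3.59 in DLD1 and 4.24 in HCT8. KLF4 was lower by a log2 fold change of -2.01 in DLD1 and -2.88 in HCT8. The HCT116 level of KLF4 came mostly from its hypoxia library, with 15377 counts against 2301 untreated. DLD1 had 1704 counts of KLF4 untreated and 2365 under hypoxia, and HCT8 had 1056 and 1155. The lines thus lay closer for KLF4 untreated than under hypoxia. Mesenchymal markers were lower in 2 of 12 (DLD1) and 5 of 12 (HCT8) and higher in 0 and 1, with medians of -1.30 and -2.46.

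The 28 genes listed for synthesis, attachment and remodelling of the GPI anchor, which CEACAM5, CEACAM6 and CEACAM7 carry, summed to between 415 and 1028 CPM. Of these, 26 or 27 were above the floor in each library, and PIGY was at 0 counts in all 8. Beside the 32.0%, 27.0% and 15.7% of all genes called in the 3 contrasts, of the 27 tested, 8 were called higher and 2 lower in DLD1 than in HCT116 (median 0.24) and 9 higher and 1 lower in HCT8 (median 0.43). PIGQ, a subunit of the enzyme of the first step, was higher by a log2 fold change of 2.29 in DLD1 and 2.60 in HCT8, and PIGM, the first mannosyltransferase, by 2.22 and 2.38. PIGT, a subunit of the transamidase that attaches the anchor, was lower by a log2 fold change of -1.03 and -0.80. Between HCT8 and DLD1, 2 were higher and 0 lower.

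The counts that follow stand beside 32.0% of all genes called for DLD1 against HCT116 and 27.0% for HCT8 against HCT116. Of the 9 tested CEACAM1 signalling partners, 1 was higher (CTNNB1) and 1 lower (SHC1) in DLD1 than in HCT116. In HCT8, 3 were lower than in HCT116 (among them ANXA2 and LYN). The medians were -0.38 and -0.70. Of the 10 regulators of CEACAM1 splicing and of CEACAM promoters, HNRNPM, a splicing factor, was higher in DLD1 than in HCT116 by a log2 fold change of 1.46 and SOX9, a crypt transcription factor, was lower in HCT8 than in HCT116 (adjusted p = 0.0266, edgeR). The list medians were -0.11 and -0.29. Counts per gene do not separate the long-tailed and short-tailed forms of CEACAM1.

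The CRC lines were set against the normal lines over the 5 untreated libraries. Of 19964 genes, edgeR called 0 (0%), with 542 at an unadjusted p under 0.05, and DESeq2 called 131. The 4 tested members were likewise not called. CEACAM1 averaged 1.08 ± 0.768 CPM over the CRC lines (SD, n = 3 lines) and 0.274 ± 0.188 CPM over the normal lines (SD, n = 2 lines), with a log2 fold change of 1.82 (standard error 1.18, adjusted p = 0.999, edgeR), and the groups overlapped because DLD1 lay below NCM460. CEACAM5 was at 0.141 ± 0.123 CPM against 0.0454 ± 0.0355 CPM, with a log2 fold change of 1.32 (standard error 1.75, adjusted p = 0.999, edgeR), and the groups overlapped, with 0 counts in HCT116 against 1 and 4 in the normal lines. CEACAM6 was at 0.446 ± 0.416 CPM against 0.0861 ± 0.0220 CPM, with a log2 fold change of 2.17 (standard error 1.18, adjusted p = 0.999, edgeR). All 3 CRC lines were above both normal lines for CEACAM6, as for 13.2% of the genes tested, and HCT116 and NCM460 differed by 7 counts against 5. Exact permutation tests of log2 CPM gave two-sided p = 0.4 for CEACAM1, 1 for CEACAM5, 0.2 for CEACAM6 and 0.8 for CEACAM19, where 0.2 is the smallest that 3 lines against 2 allow.

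For CEACAM19 the choice of normal line set the direction. It averaged 2.30 ± 0.745 CPM over the CRC lines and 2.32 ± 3.25 CPM over the normal lines, with a log2 fold change of -0.11 (standard error 1.71, adjusted p = 0.999, edgeR). Without the library labelled NCM460, the log2 fold change was 6.62 (adjusted p = 0.202, edgeR), set against the 1 count of HIEC6, and without HIEC6 it was -1.10 (adjusted p = 0.985). Without NCM460, CEACAM1 had 2.65, CEACAM5 0.68 and CEACAM6 2.36, and without HIEC6 they had 1.29, 2.53 and 2.01, none of them called. None of the genes of the other lists was called here. Epithelial markers had a median log2 fold change of 3.48, intestinal transcription factors 1.97 and mesenchymal markers -2.34, against a median near 0 over all genes, while the partners of CEACAM1 had -0.32, the GPI anchor genes 0.04 and the regulators -0.05. The part of these marker differences in the members' values was not tested.

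The response to hypoxia was read within each line first, since each line was sequenced in both conditions. CEACAM1 was higher under hypoxia beyond counting error in HCT116, from 1.53 to 2.98 CPM (ratio 1.95, 1.48 to 2.57), and in HCT8, from 1.52 to 2.20 CPM (1.45, 1.07 to 1.97). In DLD1 it had 10 counts untreated and 7 under hypoxia (0.625, 0.202 to 1.82). These intervals hold for the pair of libraries, not for the treatment.

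CEACAM6 differed in opposite directions in DLD1 and HCT8. It went from 0.918 to 0.366 CPM in DLD1 (ratio 0.399, 0.227 to 0.680) and from 0.285 to 0.835 CPM in HCT8 (2.93, 1.58 to 5.73), and in HCT116 it had 7 and 5 counts (0.674, 0.169 to 2.47). The highest line for CEACAM6 was therefore DLD1 without treatment and HCT8 under hypoxia. CEACAM5 had a ratio of 0.803 in DLD1 (0.289 to 2.20) and 0.964 in HCT8 (0.373 to 2.43), intervals that hold a ratio of 2, and it stood at 0 in HCT116.

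CEACAM19 was lower under hypoxia in HCT8, at 0.879 CPM against 2.20 (ratio 0.399, 0.271 to 0.576). In DLD1 the ratio was 1.20 (0.892 to 1.61) and in HCT116 1.13 (0.912 to 1.40), all by column totals. With totals scaled by TMM, CEACAM19 went from 1.53 to 1.87 CPM in DLD1 and from 1.905 to 0.764 CPM in HCT8. In HCT116 CEACAM19 then went from 3.05 to 4.41 CPM, a larger step than by column totals. No interval was computed on the TMM scale for CEACAM19. Its neighbour PVR was lower under hypoxia in all 3 lines, with ratios of 0.723, 0.459 and 0.501 in DLD1, HCT116 and HCT8.

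**Figure D3:**
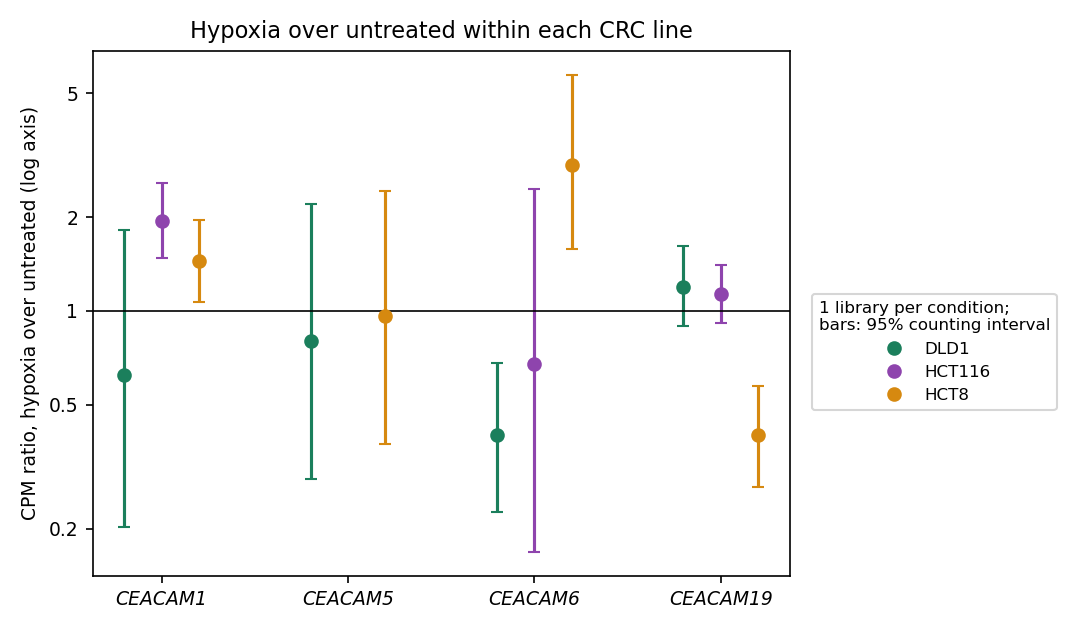
Ratio of CPM under hypoxia to untreated (log axis) for 4 members in each CRC line, with 95% counting intervals of the 2 libraries as bars and a line at 1. CEACAM6 lay at 0.399 in DLD1 and 2.93 in HCT8, CEACAM1 at 1.95 in HCT116 and 1.45 in HCT8, and CEACAM5 has no point for HCT116, where both libraries had 0 counts.

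Over the 3 lines none of the members was called. Without the line in the model, edgeR called 0 of 21045 genes (0%), with 607 at an unadjusted p under 0.05, and DESeq2 called 51. With the line as a block, edgeR called 200 genes (0.950%), 156 of them higher. In this paired fit the log2 fold change under hypoxia was 0.56 for CEACAM1 (standard error 0.52, adjusted p = 0.612, edgeR), -0.15 for CEACAM5 (standard error 1.09), 0.02 for CEACAM6 (standard error 0.81) and -0.13 for CEACAM19 (standard error 0.48), the last 3 with adjusted p of 0.959, 0.995 and 0.913. Without the block the values were 0.94, -0.14, -0.06 and 0.12. No run label is common to the untreated and hypoxia libraries of these lines, and run and treatment cannot be told apart. Exact permutation tests paired by line gave two-sided p of 0.75, 0.25, 1 and 1 in the same order of members, where 0.25 is the smallest that 3 pairs allow. For CEACAM5 the HCT116 pair had 0 counts in both libraries, so that its sign came from the library totals alone.

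In the paired fit, 11 of the 16 hypoxia response genes were called higher and 0 lower (median log2 fold change 2.82, against 0.03 over all genes), from 1.47 for ENO1, a glycolytic enzyme, upwards, with CA9, a carbonic anhydrase, at the top. Of the epithelial markers KRT19 was called higher, at 1.56, and of the mesenchymal markers FN1, at 2.80. None of the CEACAM1 partners, GPI anchor genes, regulators, intestinal transcription factors or leukocyte markers tested was called, with medians of 0.08, -0.21, 0.14, 0.14 and 0.19.

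Few reads fell on the 8 other CEACAM genes of the list. Of these, CEACAM3, CEACAM4 and CEACAM21 had 0 counts in all 8 libraries, and CEACAM8, CEACAM16, CEACAM18 and CEACAM20 had 9, 16, 12 and 21 counts in total. CEACAM22P, a transcribed pseudogene, had 62 counts in total. Its highest count was 21, in untreated NCM460, and DLD1 had 1 untreated and 0 under hypoxia. It had 4 in untreated and 17 in hypoxia HCT116 (ratio 4.01, 1.31 to 16.4) and 2 and 14 in HCT8 (8.10, 1.86 to 73.4), and its log2 fold change under hypoxia was 1.97 in the paired fit (adjusted p = 0.452, edgeR). The pseudogene CEACAMP5 had more counts than CEACAM5, with 324 (NCM460), 0 (HIEC6), 0 (DLD1), 160 (HCT116) and 28 (HCT8) untreated, and 6, 210 and 70 in DLD1, HCT116 and HCT8 under hypoxia. It was thus present in HCT116, where CEACAM5 had 0 counts.

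The pregnancy-specific glycoproteins, secreted members of the same superfamily that the placenta makes in quantity, stood apart in HIEC6. All 11 listed genes were above the floor there and summed to 79.4 CPM, against 0.0191 to 1.69 CPM in the other 7 libraries. PSG4 had 2533 counts and PSG5 1550 in HIEC6. HCT8 under hypoxia followed for PSG4 with 71 counts, and PSG4 was called higher in HCT8 than in HCT116 (log2 fold change 5.68, adjusted p = 0.0465, edgeR). In summed CPM, HIEC6 thus held the least of the 5 CEACAM members and the most of the listed PSG genes. By single gene it was not the lowest for CEACAM5, nor for CEACAM1, where DLD1 under hypoxia was lower. PSG genes are near-identical copies of one another, and how reads were shared among them is uncertain.

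**Figure D4:**
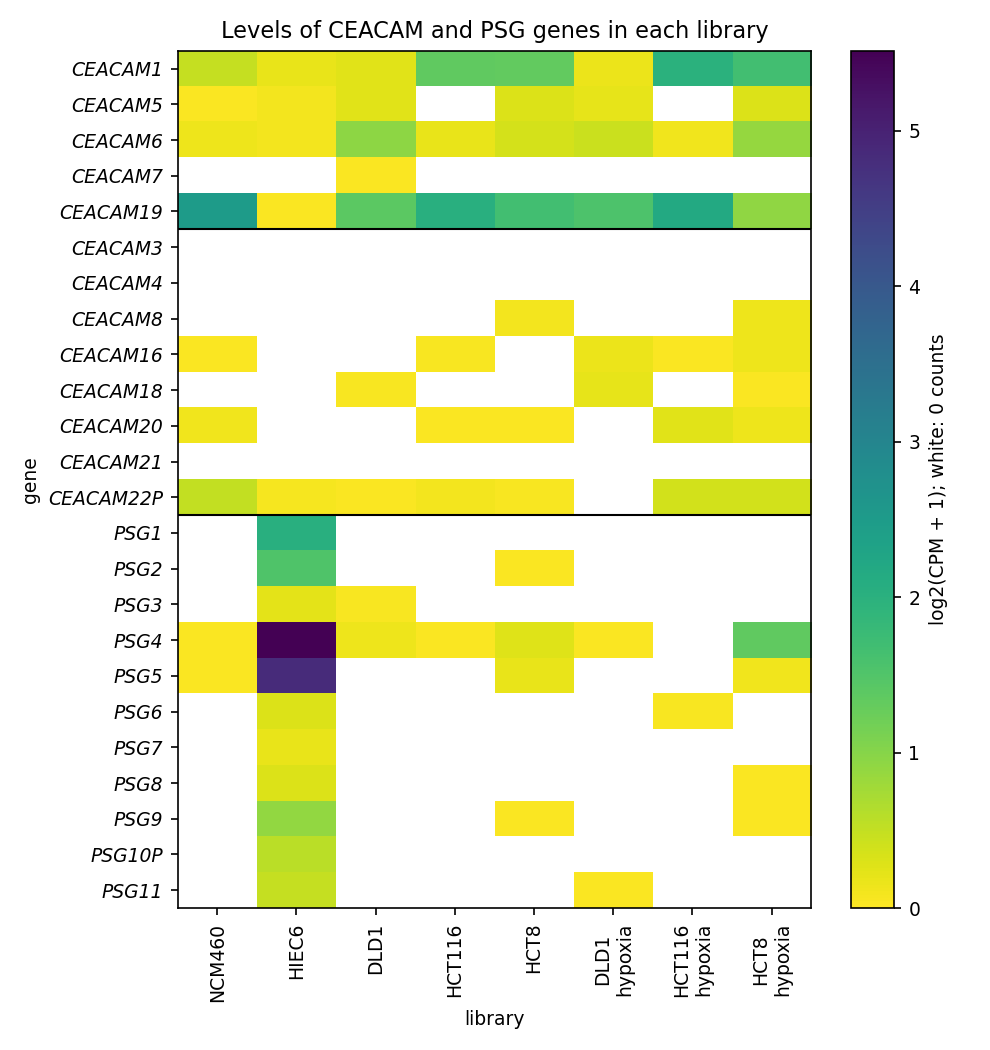
Level as log2(CPM + 1) (color) of the 5 members (top block), 8 other CEACAM genes (middle) and 11 pregnancy-specific glycoprotein genes (bottom) in the 8 libraries, with white for 0 counts. HIEC6 is the darkest column of the bottom block, led by PSG4 and PSG5, and has the weakest CEACAM19 of the top block.

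The genes whose levels followed each member most closely over the 8 libraries are given as a description, with Pearson's r of log2(CPM + 1), since libraries share lines and treatment. For each member they are the highest of 14976 or 14977 genes ranked, and a search of that size favors high values of r. For CEACAM1 they were SH2D3C (r = 0.960), ZNF467 (0.957) and LINC00341 (0.957). SH2D3C had 62 counts in HCT116, 65 in HCT8 and 0 in DLD1 untreated, and 138, 135 and 10 under hypoxia. For CEACAM5 they were ZNF223 (0.991), TUG1 (0.988) and HTT (0.987). ZNF223 had 0 counts in HCT116, 427 in DLD1 and 898 in HCT8 untreated, and 15, 451 and 936 under hypoxia. For CEACAM6 they were SP2 (0.962), ROCK1P1 (0.924) and SPTBN5 (0.908), and for CEACAM19 TULP4 (0.978), RPL13 (0.976) and RNF44 (0.967). The values for CEACAM5 and CEACAM6 rest on few counts per library.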

How the data were processed

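Total RNA libraries, from which ribosomal RNA had been removed, were sequenced by the authors, who deposited 1 table of raw counts per gene (54261 genes, 8 libraries, 0 columns left aside). The study's methods name GRCh37.p13 and the submitters' processing notes name GRCh38 and HISAT2 2.0.4, and the counter, strand setting and annotation are not given in the sources used here. The members and gene lists were chosen with earlier results of these data known. CPM used column totals (45519306 to 57374239 counts). Levels carry exact 95% Poisson intervals, and ratios of 2 libraries carry exact conditional (Clopper-Pearson) intervals.

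A gene entered a fit with 10 or more counts in 2 or more of its libraries and was tested with edgeR 4.0.16 (TMM, quasi-likelihood test, Benjamini-Hochberg over all genes tested, threshold 0.05) in R 4.3.3. That test returns no standard error. Those printed beside edgeR fold changes are the size of the log2 fold change over the square root of the F statistic. They are approximate, and where a line had no counts they depend on the prior count of the fit. The procedure was tested on simulated counts, with changes planted only in genes above the median level. Apart from these changes, each gene had the same mean level in every line. That test therefore did not cover lines that differ across genes, or changes in genes with few counts. With 1 library per line and condition, p-values without the line in the model measure the spread between lines. In the line contrasts and the fit with the block they measure what is left between the libraries of a line after treatment. In the hypoxia comparison replicate numbers stand for the line. Deviations of same-line libraries correlated at 0.828, 0.848 and 0.810, against -0.605 to -0.0569 between lines, and both fits are given. Permutation tests (SciPy 1.17.1) used log2 CPM after adding 0.5 counts. Alternatives were DESeq2 1.42.0, upper-quartile normalization, other filters, each library left out, all 8 libraries in 1 fit, the replicate block, no treatment term, transcript length and TMM-scaled CPM.

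Named genes were the 5 members, the 3 genes most alike to each (mean of at least 1 CPM), and at most 4 genes of each list, those called or at the ends of the range, except that all 8 other CEACAM genes are named. These and CEACAMP5, LIPE-AS1, PVR and PIGY were named after their values were seen. Positions are from GENCODE release 44 on GRCh37, matched by symbol, and promoters from RefSeq on GRCh38.p14.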

Additional observations from a re-analysis of the deposited data

Results flagged for a closer look

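The CEACAM6 response to hypoxia differed in direction between lines. The ratio of hypoxia to untreated CPM was 0.399 in DLD1 (47 counts untreated and 21 under hypoxia) and 2.93 in HCT8 (15 and 38 counts), each with a counting interval that leaves out 1. The difference between the lines was not tested, since 1 library per line and condition leaves no replicate within a line. In HCT116, with 7 and 5 counts, the interval held 1.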

How the results depend on the processing

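The members' calls between lines rest on single libraries, and depth limits CEACAM5, CEACAM6 and CEACAM7 in every comparison, since few libraries had 10 or more of their counts. The cause of the changes below was not tested.

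Against the normal lines, replicate numbers join different lines and pair nothing. With the replicate block CEACAM19 had 2.45 in place of -0.11. With each library left out it ranged from -1.10 to 6.62. DESeq2 called 131 genes there in place of 0.

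Under hypoxia the replicate block (the line) raised the count of called genes from 0 to 200, with DESeq2 to 1666 and with no filter to 1904, while DESeq2 without the block called 51. CEACAM6, at -0.06, turned to 0.016 with the block, 0.037 with DESeq2 and the block, and 0.0062 with upper-quartile normalization. CEACAM19, at 0.12, turned to -0.13, to -0.11 with DESeq2 and the block, and to -0.16 with the block and no filter. With each library left out in the unblocked fit, the log2 fold change ranged from -0.0044 to 1.50 for CEACAM1, -0.72 to 0.40 for CEACAM5, -0.81 to 1.07 for CEACAM6 and -0.74 to 0.54 for CEACAM19, never called.

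Between lines, with each library left out, CEACAM1 ranged from -4.78 to -3.21 (DLD1 minus HCT116), -1.20 to 0.012 (HCT8 minus HCT116) and 2.61 to 4.18 (HCT8 minus DLD1). CEACAM19 ranged from -2.46 to -0.74 (HCT8 minus HCT116) and -1.34 to 0.39 (HCT8 minus DLD1), and CEACAM6 from 1.07 to 3.16 (DLD1 minus HCT116), 0.58 to 2.98 (HCT8 minus HCT116) and -1.61 to 0.79 (HCT8 minus DLD1). Called genes ranged from 2978 to 7697, 2184 to 6999 and 937 to 6782 in the order of the CEACAM1 ranges. The lowest counts came without hypoxia DLD1 for the first and without hypoxia HCT8 for the others. Counts also moved by over 1.5 times without untreated DLD1 (4365, first contrast), without untreated HCT8 (2681, second) and, in the third, without untreated DLD1 (1528), hypoxia DLD1 (1198), untreated HCT8 (1217), untreated HCT116 (5961) and hypoxia HCT116 (6782). Without the treatment term the counts were 4392, 3736 and 1480, and CEACAM5 had 6.20 in DLD1 and 6.40 in HCT8 against HCT116, past the threshold. With at least 10 counts in every library, where fewer genes were tested, the first 2 counts were 4483 and 3584. With no filter CEACAM19 had -1.51 (HCT8 minus HCT116), past the threshold. Apart from these and the libraries named beside CEACAM1 and CEACAM19, no setting changed a tested member's call or direction.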
